A study of Mus musculus with 4 samples.

Results

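The genes described here are 10 genes of the TNF and NF-κB response, namely Tnf, Traf1, Birc3, Nfkb1, Nfkb2, Relb, Nfkbia, Nfkbiz, Tnfaip3 and Tnfaip2. They were found by gene symbol among the 54532 genes of the count table. Their mRNA was measured by RNA sequencing of CD11b+Ly6g+ MDSCs (myeloid-derived suppressor cells) sorted from the lungs of C57BL/6 mice aged 6 to 8 weeks. All 4 groups carried the pre-metastatic niche (PMN) model. In this model the mice received 300 μL of MCM, medium conditioned by melanoma cells, into the peritoneum on each of 10 days, and 100000 B16F10 mouse melanoma cells through the tail vein on day 7. The Ctrl mice are labelled as untreated model mice. The other groups were given TP5, sFD17 or FR17 under the skin at 40 μM/kg per day, starting on day 3. TP5 is thymopentin, an immunomodulating pentapeptide. FR17 carries TP5 on a branched peptide that is cleaved by the protease MMP2 and then self-assembles into sheets, and sFD17 carries a scrambled pentapeptide in place of TP5 and also assembles. Lungs were taken on day 10, and the sorted cells of 10 to 12 mice were pooled into 1 library per group, with no healthy mice among the groups. No difference below therefore has a replicate check, and each interval is a 95% exact interval that covers counting error only.

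NF-κB is a family of dimeric transcription factors that inhibitory IκB proteins hold in the cytoplasm. Signals from TNF receptors, interleukin 1 receptors and Toll-like receptors activate a kinase complex that marks IκB for destruction, and the freed dimers switch on inflammatory and survival genes in the nucleus. The genes of IκBα and of the deubiquitinase A20 are among the targets, so the response makes its own brakes. A non-canonical branch works through the subunit p52, which is made from Nfkb2, and its partner RelB. In neutrophils, the cells that carry CD11b and Ly6g at high levels, NF-κB drives cytokine genes and prolongs survival.

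The sequences below are shown because 3 of the members carry the κB consensus motif, the DNA letters that NF-κB dimers recognise, just before a transcription start. RefSeq promoters on GRCm38.p6, each with 250 bases before and 50 bases after a start, were held for 7 of the 10 genes. Those of Nfkb1, Relb and Nfkbiz were not analysed here. The κB consensus was searched on both strands and was found for Nfkbia, Tnfaip3 and Nfkb2, or 3 of the 7, against 5.17% of all 26742 genes in the table. Among single promoters 4.53% of 32544 held it. A looser pattern of GGG, any 5 bases and CC, which every κB consensus match also meets, was found for 6 of the 7, all but Traf1, against 53.7% of all genes. Tnfaip3 had 2 starts in the table and Nfkb2 had 3, and the lines show the start farthest upstream of each. Capitals mark the bases of the κB matches, read 5′ to 3′ along the strand of the gene.
Nfkbia, chr12:55492648-55492777, minus strand: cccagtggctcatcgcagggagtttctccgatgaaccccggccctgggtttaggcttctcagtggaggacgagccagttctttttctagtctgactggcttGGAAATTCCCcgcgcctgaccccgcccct
Tnfaip3, chr10:19015411-19015540, minus strand: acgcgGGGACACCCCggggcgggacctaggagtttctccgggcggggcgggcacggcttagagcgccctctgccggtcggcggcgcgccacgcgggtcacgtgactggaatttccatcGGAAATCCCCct
Nfkb2, chr19:46304692-46304711, plus strand: cgtcacGGGAATTCCCCccc
Nfkb2, chr19:46304712-46304736, plus strand: tcggggggccgaaaGGGGCTTTCCc

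The Nfkbia match began 29 bases before the start. The Tnfaip3 matches began 125 and 12 bases before the RefSeq start shown. That start and the printed bases lie inside the span of Tnfaip3 in the count table, which begins farther upstream, at 19015657. In Nfkb2, 2 overlapping matches began 39 and 38 bases before the start and another began 11 bases before it. These matches describe letters of the reference and measure no binding.

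The libraries held 15543071 to 19638228 counts. Levels are scaled CPM, a gene's count as a share of its library after TMM scaling, which sets the libraries level on their typical gene. Of all genes, 16369 had at least 10 counts in at least 1 library and were compared, and a gene was called at a 2-fold difference. All 10 members passed this filter, and all 10 were among the 2419 genes with at least 1000 counts in every library, named well-counted genes here, a background chosen after the data were seen. The median log2 fold change against Ctrl over all compared genes was −0.03 in sFD17 and 0.02 in FR17, but over well-counted genes it was 0.19 and −0.27. Scaling by library size alone brought the well-counted genes to −0.03 in both and moved the median of all genes to −0.23 and 0.26. The main changes of the members are therefore also given relative to the median well-counted gene, while those of other genes are given with TMM unless stated. All 13 neutrophil markers were detected in every library. Their summed level was 32251 CPM in Ctrl and 42022 in sFD17, with all 13 higher, while TP5 had 35356, with 10 higher and 3 lower than Ctrl, and FR17 28679, with 6 higher and 7 lower. The sums cover markers that went opposite ways. The granule protein gene Ltf went from 35104 counts in Ctrl to 64504 in FR17 and 64176 in TP5, while Csf3r, for the G-CSF receptor, went from 83644 to 55305 and 62645. As a share of all counts the same markers were lowest in Ctrl, with 3.35% in FR17, 3.57% in sFD17 and 3.61% in TP5, so the order of the libraries depended on the scaling. Macrophage markers were present too, none of the 12 at 0 counts. Their summed level was lowest in sFD17, at 2031 CPM, against 4642 in TP5, 5930 in Ctrl and 7692 in FR17, and their shares of counts, from 0.172% in sFD17 to 0.899% in FR17, had the same order. In bulk samples such as these, fewer cells of a type and less RNA per cell cannot be told apart.

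All 10 members were highest in the sFD17 library, and with TMM 9 of the 10 were lowest in FR17. The exception was Tnf, with its lowest level in Ctrl. For Tnf, Nfkb1 and Traf1 the counting intervals of the lowest levels, in Ctrl and FR17, overlapped. By library size 7 of the 10 were lowest in FR17, and relative to well-counted genes 6, the others being Tnf, Nfkb1, Traf1 and Relb. With TMM, a member spanned a median of 1.23 log2 units over the 4 libraries (0.74 to 1.74). The medians were 0.73 for all compared genes and 0.60 for well-counted genes. Spans were not computed on the other scalings. In sFD17 the median log2 fold change of the members against Ctrl was 0.66, and 0.47 relative to well-counted genes, with all 10 members higher on both scales. In TP5 the median was −0.06, with 4 members higher and 6 lower. In FR17 it was −0.51 with 1 member higher and 9 lower, and −0.23 relative to well-counted genes with 3 higher and 7 lower. The higher levels in sFD17 ran beside neutrophil markers that were above Ctrl on both scales and the lower macrophage markers given above. They also ran beside T cell markers at 0.591 times Ctrl, with 7 of 9 lower. Platelet and red blood cell markers summed to 0.316 times Ctrl, with 4 of 7 lower and 3 higher. That sum fell mostly through Pf4, with 247 counts in sFD17 against 1733 in Ctrl. Lung epithelium markers summed to 2.00 times Ctrl, mostly through Scgb1a1, with 16131 counts in sFD17 against 9541 in Ctrl, 15350 in TP5 and 15455 in FR17. In FR17, where the members were mostly lower, the markers of NK cells summed to 2.91 times Ctrl. Those of eosinophils, mast cells and basophils summed to 2.93 times and those of T cells to 1.70 times, with every marker of these lists higher. In that order, these lists held 0.0113%, 0.00398% and 0.0157% of FR17 counts. Also higher in FR17 were 11 of 12 macrophage, 8 of 8 B cell, 7 of 7 endothelium and 8 of 9 dendritic cell markers. So were 6 of 7 platelet and red blood cell markers and 8 of 9 lung epithelium markers. With TMM the sums of neutrophil and monocyte markers were below Ctrl, at 0.889 and 0.875 times. The part of any of these in the levels of the members was not tested.

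**Figure D1:**
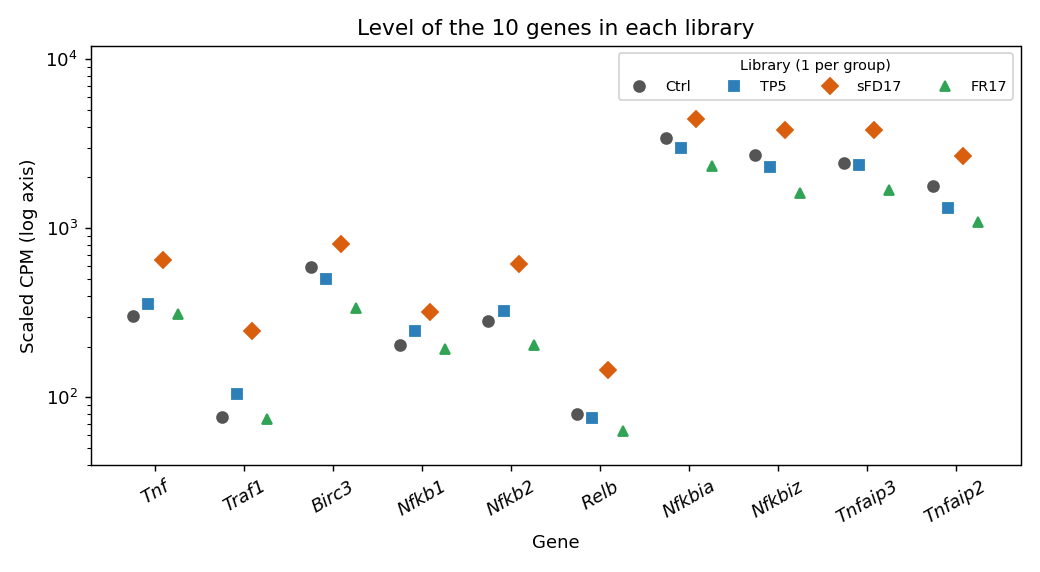
Scaled CPM on a log axis for each of the 10 genes, with 1 point per library (Ctrl, TP5, sFD17 and FR17). There are no error bars because each group has 1 library, and the sFD17 diamond is the highest point for every gene, reaching 4439 CPM for Nfkbia.

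Of the 10 members, 3 were called in sFD17 against Ctrl, namely Tnf, Nfkb2 and Traf1, all higher. Among all compared genes 5.32% were called higher and 6.47% lower in sFD17, and among well-counted genes 2.6% were called higher. Only Traf1 of the members stayed past 2-fold relative to well-counted genes. In TP5 0 of the 10 members were called, against 8.18% of compared genes and 0.165% of well-counted genes in either direction. In FR17 0 members were called, against 7.5% and 1.24%. The calls over all genes depended on the scaling. In sFD17 871 genes were called higher and 1059 lower with TMM, and 580 and 1534 by library size. In FR17 these counts were 641 and 586 with TMM, and 1091 and 316 by library size.

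**Figure D2:**
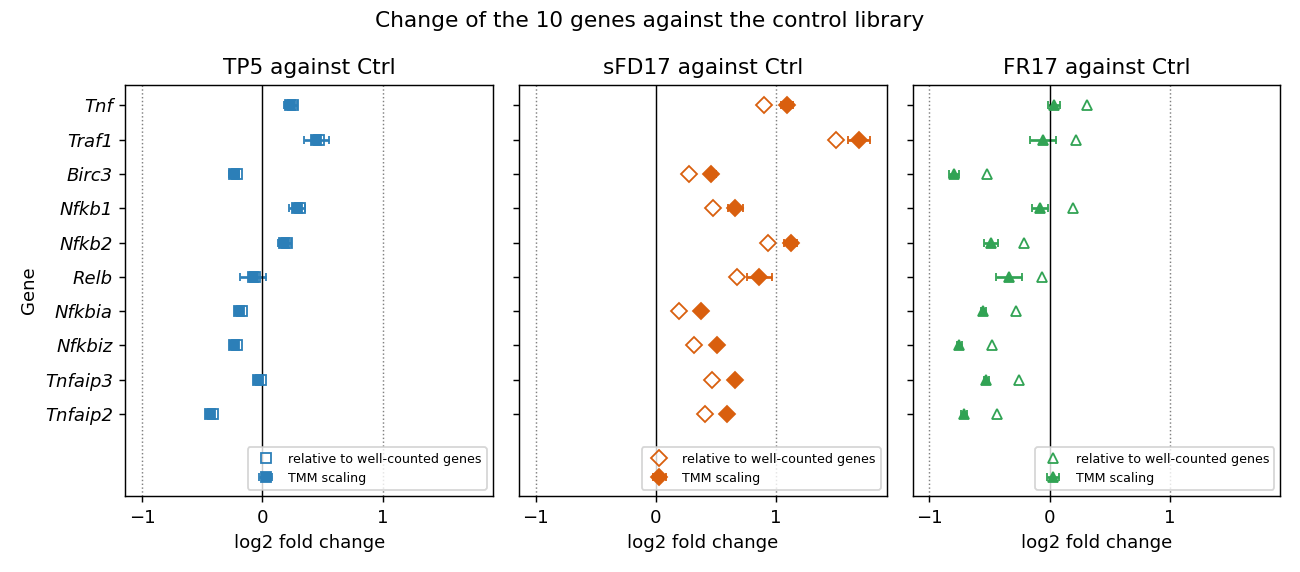
Log2 fold change of each gene against Ctrl in TP5, sFD17 and FR17. Filled symbols are TMM-scaled values with 95% counting intervals, open symbols are relative to the median well-counted gene, and dotted lines mark 2-fold. In sFD17 all symbols lie right of 0, the filled ones from 0.38 to 1.69, and in FR17 the filled ones lie between −0.80 and 0.04.

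Tnf (ENSMUSG00000024401, chromosome 17, 35199381 to 35202007, minus strand) encodes TNF, the cytokine that starts the response. Its level was 304 CPM in Ctrl, 358 in TP5 and 312 in FR17, and reached 648 in sFD17. The sFD17 library stood apart from the other 3, and the counting intervals of Ctrl and FR17 overlapped. Tnf rose 2.13-fold (2.06 to 2.20) in sFD17 against Ctrl, and 98.0% of well-counted genes had a lower fold change. Its log2 fold change relative to well-counted genes was 0.90, short of 2-fold. In FR17 the fold against Ctrl was 1.03 (0.990 to 1.06), a log2 fold change of 0.04, or 0.31 relative to well-counted genes.

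Traf1 (ENSMUSG00000026875, chromosome 2, 34941750 to 34961772, minus strand) encodes an adaptor of TNF receptor complexes and is a known NF-κB target. Its level was 77.1 CPM in Ctrl, 105 in TP5 and 74.2 in FR17, and reached 249 in sFD17. It rose 3.22-fold (3.02 to 3.44) in sFD17, the largest change of any member, and 99.4% of well-counted genes had a lower fold change. It was past 2-fold relative to well-counted genes as well. In TP5 the fold was 1.36 (1.27 to 1.47), the highest of the members there. Ctrl and FR17 did not differ beyond counting error, and the sign of that difference turned with the scaling, from −0.06 with TMM to 0.22 relative to well-counted genes on the log2 scale.

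Birc3 (ENSMUSG00000032000, chromosome 9, 7848699 to 7873186, minus strand) encodes cIAP2, a ubiquitin ligase of TNF receptor complexes that opposes cell death. Its level was 591 CPM in Ctrl, 503 in TP5 and 340 in FR17, and reached 813 in sFD17, and no counting intervals overlapped. Its log2 fold change in FR17 was −0.80 (−0.84 to −0.75), or −0.52 relative to well-counted genes, the lowest value of any member on both scales. In sFD17 it was 0.46 (0.42 to 0.50), or 0.27 relative to well-counted genes.

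Nfkb1 (ENSMUSG00000028163, chromosome 3, 135584655 to 135691547, minus strand) encodes p105, the precursor of the subunit p50. Its level was 203 CPM in Ctrl, 248 in TP5 and 192 in FR17, and reached 321 in sFD17. With TMM it had the narrowest span of the members, 0.74 log2 units. In sFD17 its log2 fold change was 0.66 (0.60 to 0.73), or 0.47 relative to well-counted genes. In FR17 it was −0.08 with TMM and 0.20 relative to well-counted genes, so that its sign turned with the scaling.

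Nfkb2 (ENSMUSG00000025225, chromosome 19, 46304737 to 46312090, plus strand) encodes p100, which inhibits Rel proteins until it is processed to p52. Its level was 284 CPM in Ctrl, 323 in TP5 and 203 in FR17, and reached 618 in sFD17. It rose 2.17-fold (2.10 to 2.25) in sFD17 and was at 0.714-fold (0.686 to 0.744) of Ctrl in FR17. These were log2 fold changes of 0.93 and −0.21 relative to well-counted genes. In GENCODE M21, 531 of the 4584 exon bases of Nfkb2 are shared with the long non-coding RNA AC114539.1 and 299 with Psd, both on the opposite strand. The counts of AC114539.1 were not analysed here, and Psd had 2078 to 3421 counts, with the most in sFD17. Whether strand was used in counting is not given in the sources used here, so reads on the shared bases are uncertain.

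Relb (ENSMUSG00000002983, chromosome 7, 19606217 to 19629438, minus strand) encodes RelB, the partner of p52. Its level was 79.8 CPM in Ctrl, 75.6 in TP5 and 63.1 in FR17, and reached 145 in sFD17. Its log2 fold change in sFD17 was 0.86 (0.76 to 0.96), the next after the called members, and TP5 and Ctrl did not differ beyond counting error. Relative to well-counted genes it was 0.67 in sFD17 and −0.06 in FR17. The other subunit genes are Rela, for p65, and Rel, for c-Rel. Against Ctrl, Rela had log2 fold changes of 0.57 in sFD17, −0.36 in FR17 and −0.03 in TP5, and Rel had 0.43, −0.54 and 0.27. Neither passed 2-fold.

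Nfkbia (ENSMUSG00000021025, chromosome 12, 55489410 to 55492647, minus strand) encodes IκBα, the main cytoplasmic inhibitor, and carries the κB match printed above. Its level was 3420 CPM in Ctrl, 2995 in TP5 and 2336 in FR17, and reached 4439 in sFD17. Its log2 fold change in sFD17 was 0.38 (0.36 to 0.39), the smallest of the 10 members, and 71.9% of well-counted genes had a lower one. In FR17 it was −0.55 (−0.57 to −0.53). Relative to well-counted genes these were 0.19 and −0.28.

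Nfkbiz (ENSMUSG00000035356, chromosome 16, 55811375 to 55838899, minus strand) encodes IκBζ, a nuclear IκB protein that helps NF-κB switch on secondary response genes. Its level was 2707 CPM in Ctrl, 2303 in TP5 and 1609 in FR17, and reached 3841 in sFD17. The order of the libraries was that of Nfkbia, with no overlap of counting intervals. Its log2 fold change was 0.51 (0.49 to 0.52) in sFD17 and −0.75 (−0.77 to −0.73) in FR17, or 0.32 and −0.48 relative to well-counted genes.

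Tnfaip3 (ENSMUSG00000019850, chromosome 10, 19000910 to 19015657, minus strand) encodes A20, the ubiquitin-editing enzyme that ends NF-κB signalling. Its level was 2421 CPM in Ctrl, 2368 in TP5 and 1682 in FR17, and reached 3820 in sFD17. TP5 and Ctrl lay close together, and the sign of that difference turned with the scaling. Its log2 fold change was 0.66 (0.64 to 0.68) in sFD17 and −0.53 (−0.55 to −0.51) in FR17, or 0.47 and −0.25 relative to well-counted genes. Of the 10, its profile over the libraries lay closest to the median profile of the members, with a root mean square difference of 0.039 log2 units, and that of Traf1 lay farthest, at 0.332.

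Tnfaip2 (ENSMUSG00000021281, chromosome 12, 111442469 to 111455018, plus strand) is induced by TNF, and its protein acts in the formation of membrane protrusions. Its level was 1781 CPM in Ctrl, 1318 in TP5 and 1086 in FR17, and reached 2687 in sFD17. In TP5 it had the lowest log2 fold change of the members, −0.43 (−0.46 to −0.41), and only 4.92% of well-counted genes were lower. In sFD17 it was 0.59 (0.57 to 0.62) and in FR17 −0.71 (−0.74 to −0.69), or 0.40 and −0.44 relative to well-counted genes. Of its 4984 exon bases, 314 are shared with Gm40578 on the opposite strand, which had at most 77 counts in a library.

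**Figure D3:**
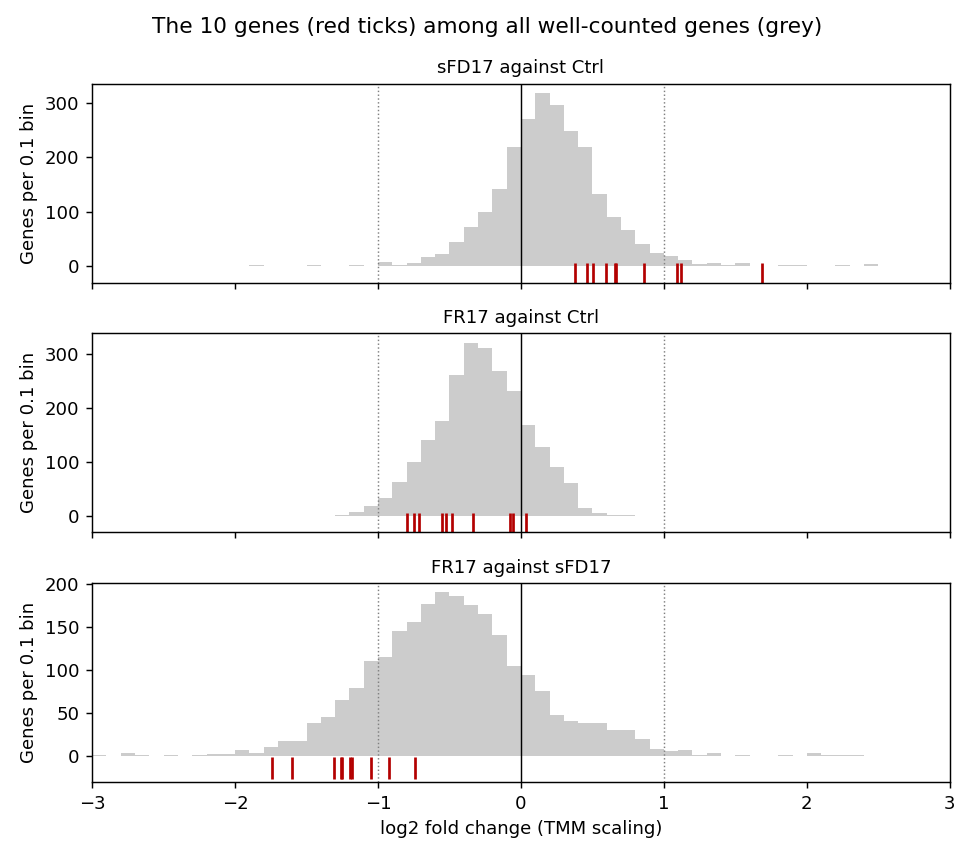
Number of well-counted genes (grey bars, 2419 genes, axis drawn from −3 to 3) per 0.1 log2 unit of fold change, with the 10 genes as red ticks and dotted lines at 2-fold, for sFD17 against Ctrl, FR17 against Ctrl and FR17 against sFD17. In sFD17 against Ctrl every tick lies right of the grey median of 0.19. In FR17 against sFD17 every tick lies left of the grey median of −0.50.

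The 3 peptides were given at the same dose and time and were compared in 3 pairs. These comparisons share libraries with each other and with those against Ctrl. TP5 and sFD17 differ in structure by the assembling branched backbone and by the scrambled pentapeptide, and all 10 members were higher in sFD17, with a median log2 fold change of 0.80. Of these, 2 were called, Tnfaip2 at 1.03 (1.00 to 1.05) and Traf1 at 1.24 (1.16 to 1.32), against 6.74% of compared genes and 3.64% of well-counted genes called higher. The median relative to well-counted genes was 0.58, and Traf1 alone was past 2-fold. Over all genes 1103 were called higher and 923 lower, and by library size 709 and 1646.

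FR17 and TP5 share the pentapeptide and differ by the assembling backbone. All 10 members had lower values in FR17 with TMM, with a median log2 fold change of −0.43, from −0.20 (−0.25 to −0.15) for Tnf to −0.67 (−0.73 to −0.61) for Nfkb2. None of the 10 was called, against 9.92% of compared genes and 0.496% of well-counted genes. Relative to well-counted genes the median was −0.16, with 8 members lower and 2, Tnf and Relb, higher. Over all genes 1153 were called higher and 471 lower, and by library size 1600 and 314.

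FR17 and sFD17 share the backbone and differ by the order of the pentapeptide, and between them the members differed most. All 10 were lower in FR17, with a median log2 fold change of −1.23, and 8 of the 10 were called, all but Nfkbia at −0.93 (−0.94 to −0.91) and Nfkb1 at −0.74 (−0.80 to −0.68). Traf1 fell by 1.74 (−1.83 to −1.66) and Nfkb2 fell by 1.61 (−1.66 to −1.55) on the log2 scale. The background in this comparison was high, with 10.8% of compared genes and 17.2% of well-counted genes called lower. Relative to well-counted genes, whose median was −0.50, the median of the members was −0.73 and 2 were past 2-fold, Nfkb2 at −1.11 and Traf1 at −1.25. All 10 kept their sign on the 4 scalings. Over all genes 1847 were called higher and 1766 lower, and by library size 4209 and 782. The macrophage markers differed between these libraries more than between any others, and their part in the difference was not tested.

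Ratios of counts within a library do not depend on the scaling between libraries. The count of Nfkb2 plus Relb over that of Nfkb1 plus Rela, 2 subunit genes of the non-canonical branch against 2 of the canonical branch, was 0.918 (0.887 to 0.951) in Ctrl and 0.910 (0.881 to 0.940) in TP5. It was 1.26 (1.22 to 1.29) in sFD17 and 0.777 (0.751 to 0.803) in FR17. The interval of sFD17 lay above and that of FR17 below the others, while Ctrl and TP5 overlapped. The place of FR17 depended on leaving out Rel. With Rel, the other canonical subunit gene, added to the denominator after the data were seen, the ratio was 0.419 (0.407 to 0.432) in Ctrl, 0.396 (0.385 to 0.407) in TP5, 0.398 (0.387 to 0.410) in FR17 and 0.613 (0.598 to 0.629) in sFD17. The interval of sFD17 then still lay above the others, while that of FR17 overlapped with both TP5 and Ctrl. The ratio of Nfkbia to Nfkb1, an inhibitor to a subunit, was 16.9 (16.3 to 17.5) in Ctrl, 12.1 (11.7 to 12.5) in TP5, 12.2 (11.8 to 12.5) in FR17 and 13.8 (13.4 to 14.3) in sFD17. It was thus highest in Ctrl, and TP5 and FR17 overlapped. The ratio of Tnf to Tnfaip3, the cytokine to the brake, was 0.126 (0.122 to 0.129) in Ctrl, 0.151 (0.147 to 0.155) in TP5, 0.170 (0.166 to 0.174) in sFD17 and 0.186 (0.181 to 0.191) in FR17. It was lowest in Ctrl and highest in FR17, with no overlap of intervals.

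**Figure D4:**
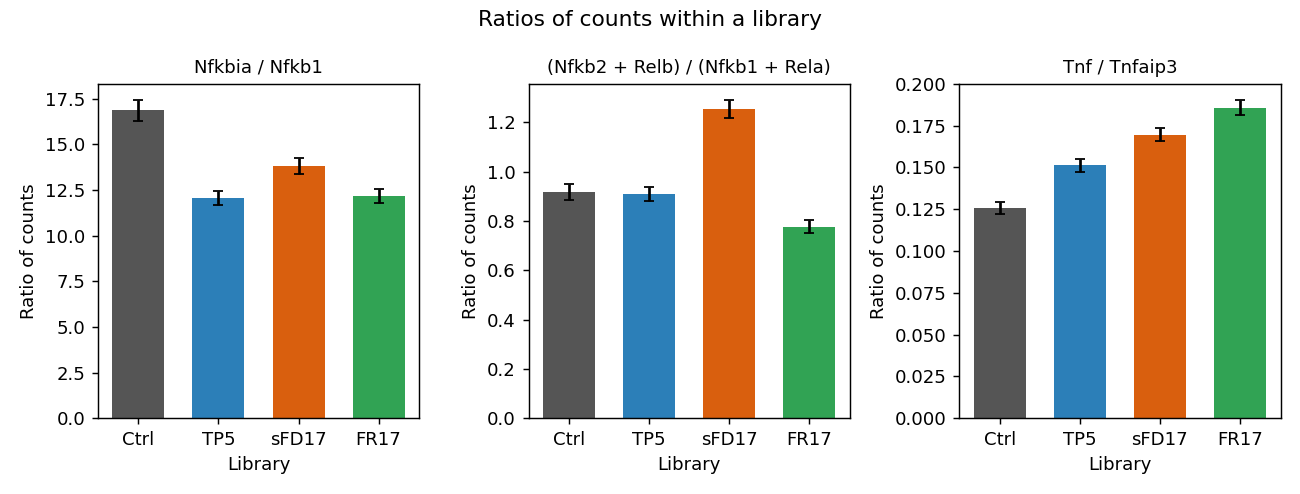
Ratios of counts within each library, as bars from 0 with 95% counting intervals, for Nfkbia over Nfkb1, for Nfkb2 plus Relb over Nfkb1 plus Rela, and for Tnf over Tnfaip3, with the 4 libraries on the horizontal axis. The sFD17 bar of 1.26 stands above the others in the middle panel, and the Ctrl bar stands above the others in the left panel and below them in the right panel.

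Levels of different genes were compared as scaled CPM per kilobase of gene length. In Ctrl the highest levels were 2124 for Nfkbia, 539 for Nfkbiz, 357 for Tnfaip2 and 335 for Tnfaip3. Nfkbia ranked 16 among all compared genes in Ctrl, and 15 in sFD17 and 26 in FR17. Tnf followed with 186, Birc3 with 118 and Nfkb2 with 86.5, the last on a file length of 3289 bases, shorter than the 4584 exon bases in GENCODE M21. The lowest were Relb with 20.5, Nfkb1 with 16.8 and Traf1 with 8.74, a level above that of 74.3% of compared genes. The member with the largest change in sFD17 was thus the least abundant, and the most abundant member changed least.

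Of 8098 other genes with at least 100 counts in each library, the 5 whose profile lay closest to the median profile of the members were Rnf19b, Sptb, Atg9a, Glrx and Fry. Their root mean square differences over the 4 libraries were 0.030, 0.036, 0.038, 0.038 and 0.039 log2 units. Rnf19b, a ubiquitin ligase gene, had 10718 counts in sFD17, against 8241 in FR17, 8556 in Ctrl and 8582 in TP5. With 4 libraries, such likeness is a description.

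The rest of the pathway was read from 5 lists of 83 genes, of which 82 were compared. In sFD17 against Ctrl 63 were higher and 19 lower, with 8 past 2-fold higher and 2 lower and a median log2 fold change of 0.29, beside 0.19 for well-counted genes and −0.03 for all compared genes. In FR17 26 were higher and 56 lower, with 2 past 2-fold higher, 2 lower and a median of −0.26, beside −0.27 for well-counted genes and 0.02 for all compared genes. In TP5 34 were higher and 48 lower, with 1 past 2-fold higher, 2 lower and a median of −0.05. Of these 82 genes 46 were well-counted. As shares of the 82, the calls were 9.76% higher and 2.44% lower in sFD17, against 5.32% and 6.47% of all compared genes. In FR17 they were 2.44% each way, against 3.92% higher and 3.58% lower, and in TP5 1.22% higher and 2.44% lower, against 3.2% and 4.99%. Relative to well-counted genes 5 of the 82 were past 2-fold higher and 2 lower in sFD17, and 3 higher and 0 lower in FR17. As shares these were 6.1% and 2.44% in sFD17, against 3.64% and 9.38% of all compared genes on that scale. In FR17 they were 3.66% and 0%, against 7.56% and 1.6%.

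**Figure D5:**
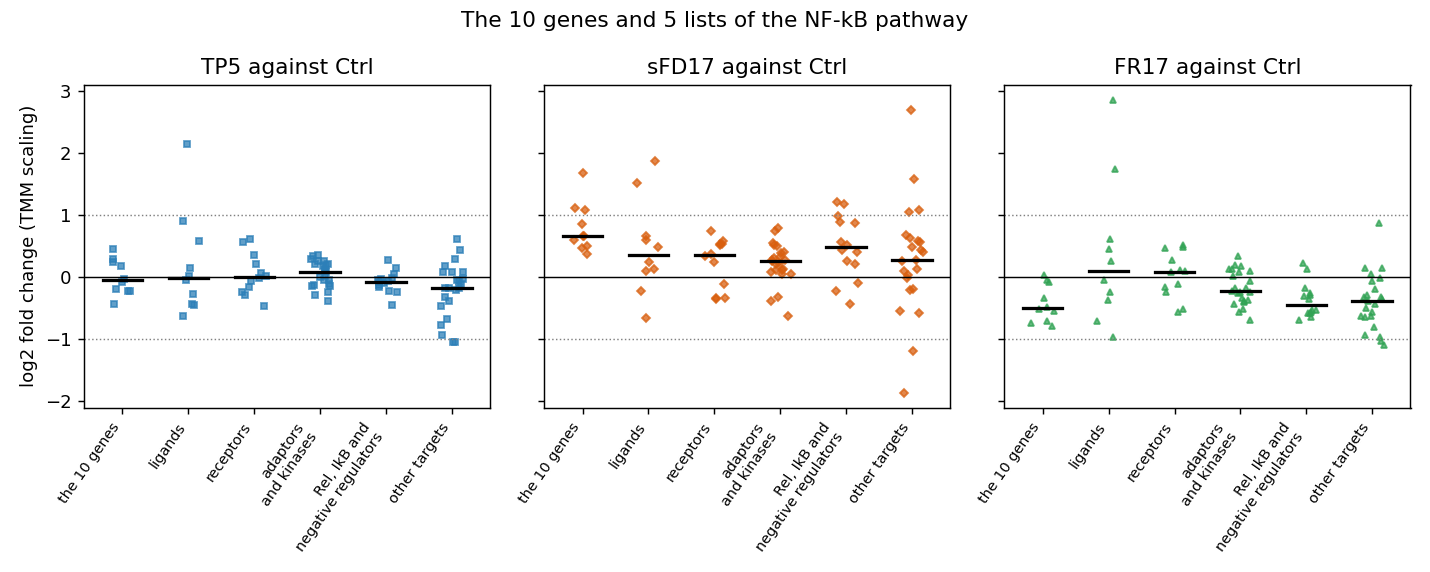
Log2 fold change against Ctrl (TMM scaling) for the 10 genes and for each compared gene of 5 pathway lists, in TP5, sFD17 and FR17. Black bars are medians and dotted lines mark 2-fold, and the median of the 10 genes, 0.66 in sFD17, lies above those of the 5 lists, 0.26 to 0.48.

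The 10 ligand genes had a median of 0.36 in sFD17, −0.02 in TP5 and 0.10 in FR17. Well-counted genes had 0.19, −0.02 and −0.27. Ltb, the gene of lymphotoxin beta, went from 1781 counts in Ctrl to 2202 in sFD17, a log2 fold change of 0.66 (0.57 to 0.75). Il18, an inflammasome cytokine, was lower, at −0.67 (−0.93 to −0.42) in sFD17 and −0.63 (−0.87 to −0.41) in TP5, but had 725 counts in FR17 against 388 in Ctrl, a value of 0.46 (0.28 to 0.64). The macrophage markers were likewise lower in sFD17 and TP5 and higher in FR17, and their part in the Il18 values was not tested. Tnfsf9, the ligand of the costimulatory receptor 4-1BB, had 0.58 (0.43 to 0.73) in TP5. Of the called ligands none was abundant. In sFD17, 2 were called, among them Lta, for lymphotoxin alpha, with 24 counts against 7 in Ctrl, named after its values were seen. Tnfsf11, for RANKL, the other ligand called in sFD17, had 5 counts in Ctrl, 14 in sFD17, 30 in TP5 and 66 in FR17, and Cd40lg, for CD40 ligand, had 12 in Ctrl and 61 in FR17. The part of the markers of T cells, NK cells and eosinophils, mast cells and basophils given above, all higher in FR17, in these ligand values was not tested.

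None of the 12 receptor genes was called against Ctrl. Tnfrsf1b, for TNF receptor 2, had 12883 counts in Ctrl, 16918 in sFD17 and 11835 in FR17, a log2 fold change of 0.75 (0.72 to 0.78) and one of −0.56 (−0.60 to −0.53). Il18r1, for a chain of the interleukin 18 receptor, had 0.58 (0.35 to 0.82) in sFD17. Cd40 had 0.62 (0.41 to 0.84) in TP5. Il1r1, for the interleukin 1 receptor, had at most 179 counts and values of 0.56 in TP5, 0.52 in FR17 and −0.34 in sFD17. None of the 23 adaptor and kinase genes was called either. In sFD17 20 of them were higher, with a median of 0.26, beside 0.19 for well-counted genes. Rnf31, for a subunit of the linear ubiquitin ligase, had 0.79 (0.69 to 0.90) and Traf3, for an adaptor that restrains the non-canonical branch, had 0.74 (0.63 to 0.84). In FR17 15 of the 23 were lower, with a median of −0.24, beside −0.27 for well-counted genes. Among the lower ones were Irak2, a kinase gene of interleukin 1 and Toll-like receptors, at −0.70 (−0.75 to −0.64), and Tab3 at −0.56 (−0.77 to −0.36). In TP5 Ikbkb, for a catalytic IκB kinase, had 0.36 (0.27 to 0.44) and Tab3 −0.39 (−0.61 to −0.18).

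The 14 other Rel, IκB and negative regulator genes had a median of 0.48 in sFD17, beside 0.19 for well-counted genes. Of them 11 were higher and 3 lower. The 2 called encode inhibitors, as Nfkbia and Tnfaip3 do. Nfkbie, for IκBε, went from 5256 to 9467 counts, a rise of 1.20 (1.16 to 1.25) on the log2 scale, and Tnip1, for a partner of A20, from 1429 to 2528, a rise of 1.18 (1.08 to 1.27). Relative to well-counted genes these were 1.02 and 0.99, and by library size 0.99 and 0.96, so that both calls depended on the scaling. In FR17 12 of the 14 were lower with a median of −0.45, beside −0.27 for well-counted genes, and 0 were called. Bcl3, for a nuclear IκB protein, had −0.70 (−0.78 to −0.63) and Irak3, for an inhibitor of Toll-like receptor signalling, −0.65 (−0.78 to −0.53). In TP5 Tnip2 had the lowest value, −0.45 (−0.59 to −0.31).

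The other target genes did not move one way. Of 23 compared, 16 were higher and 7 lower in sFD17, with a median of 0.27, beside 0.19 for well-counted genes. Ikbke, for an IκB kinase relative, rose from 446 to 2274 counts, by 2.70 (2.56 to 2.86) on the log2 scale. Icam1, an adhesion molecule, rose from 4657 to 10967 counts, Sod2, a mitochondrial antioxidant enzyme, by 1.09 and Cflar, an inhibitor of death receptor signalling, by 1.05. Sod2 and Cflar were short of 2-fold relative to well-counted genes, at 0.90 and 0.86. Vcam1, another adhesion molecule, fell from 1054 to 223 counts and Il6 from 1502 to 509. The 12 macrophage markers, all lower in sFD17, summed to 0.343 times Ctrl there, and their part in these falls was not tested. Icam1, Sod2, Cflar and Il6 were named after their values were seen. In FR17 19 of the 23 were lower, with a median of −0.40, beside −0.27 for well-counted genes. The 2 called were the neutrophil-attracting chemokines Cxcl3, from 2054 to 1293 counts, and Cxcl2, from 152311 to 101222. Their log2 fold changes were −1.11 and −1.03 with TMM, but −0.83 and −0.76 relative to well-counted genes and −0.86 and −0.79 by library size, short of 2-fold. In TP5 16 were lower and 2 were called, Vcam1 and Csf2, the latter with 11 counts against 24 in Ctrl and named after its values were seen. Vcam1 fell by 1.06 (−1.21 to −0.91) on the log2 scale while Cxcl3 had −0.93 (−1.04 to −0.83).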

How the data were processed

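The authors extracted RNA with TRIzol from sorted CD11b+Ly6g+ MDSCs pooled within each group and sequenced 1 library per group. The authors deposited raw counts per gene. Per the submitters' processing notes, HISAT2 2.0.5, StringTie 1.3.3b, featureCounts 1.5.0-p3 and edgeR 3.18.1 were used with GRCm38.p6, and the strand setting of the counting is not given in the sources used here. Libraries were made with the NEBNext Ultra Directional kit.

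Log2 fold changes were computed with edgeR 4.0.16 in R 4.3.3 from TMM-scaled CPM with a prior count of 2, for genes that reached 10 counts in any of the 4 libraries. A gene was called at 2-fold. With 1 library per group no test across conditions was possible, and no p-values are given. Intervals are 95% exact binomial intervals. The steps were also run on simulated data with known fold changes. No shift of well-counted genes between libraries was simulated, so that run does not check the scaling. DESeq2 1.42.0 size factors, library size, other filters, a prior count of 0.5, a 1.5-fold call and the exact test of edgeR were tried as alternatives. For the exact test the spread was estimated with all libraries taken as a single group. It therefore includes the differences between groups and is no spread between replicates. Centring on genes with at least 1000 counts in every library was added after the data were seen. Markers of 13 cell types were read. The text names the members, Rela and Rel, the 2 genes with the largest change per list and comparison with Ctrl once either library reached 50 counts, and the 5 genes of most similar profile. The members and lists were chosen with earlier results of these data known. Sequences are from RefSeq. Figures used Python 3.11.15 and matplotlib 3.10.9.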

Additional observations from a re-analysis of the deposited data

How the results depend on the processing

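The median of the members kept its direction in each comparison under each alternative. Single members turned sign in 5 instances, none of them called, namely Nfkb1 and Traf1 in FR17 against Ctrl, Tnfaip3 in TP5 against Ctrl, and Tnf and Relb in FR17 against TP5. Of 48 splits of the calls over all genes into higher and lower, 9 turned. In FR17 against Ctrl 641 higher and 586 lower became 172 and 276 with 10 counts in every library, 1803 and 1911 at 1.5-fold and 134 and 165 by the exact test of edgeR. In sFD17 against TP5 1103 and 923 became 709 and 1646 by library size, 731 and 1577 when centred on well-counted genes and 2518 and 2682 at 1.5-fold. In FR17 against sFD17 1847 and 1766 became 1710 and 1899 with DESeq2 size factors, 1082 and 1234 with 10 counts in every library and 922 and 1145 by the exact test. Counts and medians are given in the order TP5, sFD17 and FR17 against Ctrl, then sFD17 against TP5, FR17 against TP5 and FR17 against sFD17. Over all genes, 1339, 1930, 1227, 2026, 1624 and 3613 were called. A 1.5-fold call gave 3409, 4751, 3714, 5200, 4006 and 7534, and no filter on low counts gave 3097, 4212, 2891, 3762, 3175 and 5654. Asking for 10 counts in every library gave 503, 914, 448, 980, 714 and 2316, and the exact test of edgeR at an unadjusted p under 0.05, which compares libraries and not conditions, gave 324, 784, 299, 752, 598 and 2067. The median of the members by library size was −0.0035, 0.44, −0.26, 0.53, −0.24 and −0.77. Centred on well-counted genes, the last 5 were 0.47, −0.23, 0.58, −0.16 and −0.73. Without a filter it was −0.43 for FR17 against Ctrl, −0.36 for FR17 against TP5 and −1.12 for FR17 against sFD17, and with DESeq2 size factors 0.84 for sFD17 against TP5 and −1.28 for FR17 against sFD17. Members called at 1.5-fold numbered 7 in sFD17 and 3 in FR17 against Ctrl, 8 in sFD17 against TP5 and 1 in FR17 against TP5, beside 13.4%, 11.7%, 15.4% and 10.1% of compared genes called in the same direction. Centred on well-counted genes, 1 was called in sFD17 against Ctrl, 1 in sFD17 against TP5 and 2 in FR17 against sFD17, beside 3.64%, 4.47% and 4.19%, and by library size 1, 0 and 2, beside 3.54%, 4.33% and 4.78%. In sFD17 against TP5, 1 was called by the exact test of edgeR and 1 without a filter, beside 2.84% and 8.07% called higher. The size of each change thus depended on the scaling, and in log2 units the median moved most in FR17 against sFD17. No replicate could be left out, and no paired analysis was possible because each group has 1 library.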
